A study of Rattus norvegicus with 12 samples.

Results

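The response to rapamycin of TGR-1 cells, rat fibroblasts with both c-myc alleles intact, was measured on 6 of the 12 Illumina RatRef-12 arrays of the study, 3 after rapamycin and 3 after vehicle, chosen by their labels. The rapamycin group was TGR-1 (c-Myc+/+) exposed to 50 nM rapamycin in DMSO for 24 hr, and the control group was TGR-1 (c-Myc+/+) with DMSO alone for the same time. Both groups grew in high-glucose DMEM with bovine calf serum, attached overnight before the drug was added, and were stated in the methods to be independent biological replicates. TGR-1 is a subclone of the Rat-1 line, and the other 6 arrays hold HO15.19 (c-Myc-/-), a clone made from TGR-1 by targeted disruption of both c-myc alleles and given rapamycin or DMSO in the same way. Each group is therefore 1 cell line in culture, and the study used the pair to ask whether the effect of rapamycin on gene expression depends on c-Myc.

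Rapamycin binds the immunophilin FKBP12, and the complex inhibits mTORC1, the form of the mTOR kinase that couples amino acid and growth factor supply to protein synthesis, ribosome production, glycolysis and lipid synthesis, and restrains autophagy. Part of this control is transcriptional and is known to run through ATF4, HIF-1, SREBP and TFEB. Loss of mTORC1 activity also relieves feedback from S6 kinase onto growth factor receptors and their downstream kinases.

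Of the 22523 probes on the array, 9824 (43.6%) were tested, namely those detected above background (detection p-value less than 0.05) in 3 or more TGR-1 arrays. All levels below are log2 values after background correction and quantile normalization, and a change is the rapamycin mean minus the control mean. A probe was called when its Benjamini-Hochberg adjusted p from limma was under 0.05, its unadjusted p was at most 0.01 and its change reached 1.2-fold. Gene names were available only for probes in the tables of changed genes that the authors made for either line, which covered 1715 of the tested probes. Named probes were thus picked by the authors on these same arrays, so a list's direction is not independent evidence. The background for every gene list is the share called among all named probes, 25% in either direction, 15.9% higher and 9.04% lower. The mean raw signal was 334 to 370 on the rapamycin arrays and 337 to 361 on the control arrays, and between 9605 and 9867 probes were detected on each. Of 15 fibroblast markers, 4 had a named probe (Col1a1, Col3a1, Fbln1 and Fn1), and all 4 were detected on all 6 arrays. Among the markers of other cell types only the leukocyte gene Cd14 had one, at 7.16 to 7.43 with rapamycin and 6.91 to 7.18 in control, so the markers check the label only in part. In such bulk samples, fewer cells of a type and less RNA per cell cannot be told apart.

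Rapamycin changed 467 probes in TGR-1 cells, which is 4.75% of those tested. Of these, 293 were higher (2.98%) and 174 were lower (1.77%), and 1865 probes had an unadjusted p under 0.05. The changes were small, with a median of 0.56 for the probes called higher and −0.54 for those called lower, while the median over all probes tested was −0.0046. A change of at least 1.5-fold was seen in 126 probes called higher and 68 called lower, and at least 2-fold in 14 and 10. In all 467 the 3 rapamycin values and the 3 control values did not overlap, as was the case for 26.8% of all probes tested. Among the named probes 428 were called (25%), 273 higher (15.9%) and 155 lower (9.04%), and the median change of all named probes was 0.04. The remaining 39 called probes had no name here. The number of calls was 239, 232 and 268 without rapamycin replicate 1, 2 or 3 and 250, 211 and 339 without control replicate 1, 2 or 3. All 467 kept their sign in each of these fits, which was fixed in advance because their groups did not overlap. With arrays centred on the median of all probes instead of quantile normalized 41 were called, and the 467 kept their sign.

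**Figure D1:**
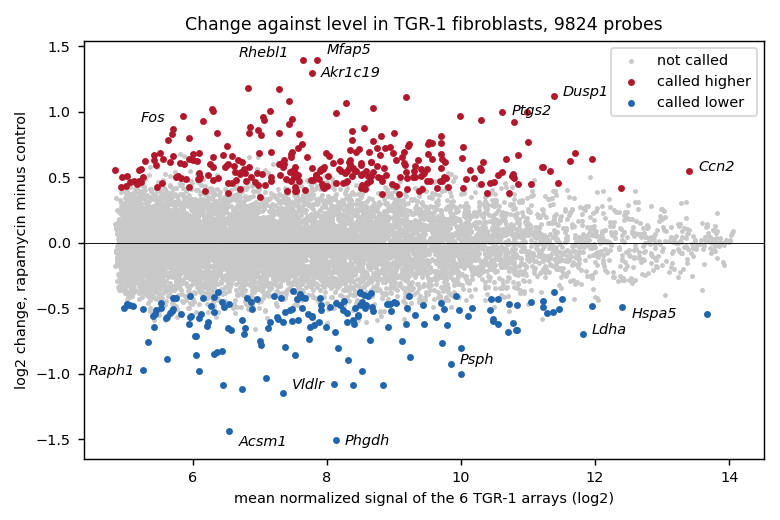
Log2 change in TGR-1 cells (rapamycin minus control, vertical axis) against the mean log2 signal of the 6 TGR-1 arrays (horizontal axis), with a point for each of the 9824 probes. The 293 probes called higher (red) and the 174 called lower (blue) are spread over the range of signal, and most lie within 2-fold.

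The largest falls included enzymes that make serine. Phgdh, which takes a glycolytic intermediate into the serine pathway, read 7.24, 7.30 and 7.58 on the rapamycin arrays, against 8.84, 8.84 and 8.95 on the control arrays. Psph, which catalyses the last step of the pathway, read 9.35, 9.33 and 9.47 with rapamycin and 10.29, 10.35 and 10.30 in control. All rapamycin values lay below all control values for both, with changes of −1.50 (SE 0.12, adjusted p = 9.74e-06 from limma) and −0.93 (SE 0.10, adjusted p = 9.33e-05). The other 3 named one-carbon enzymes were negative without being called, with Shmt2 at −0.53, Gcsh at −0.41 and Mthfd1l at −0.19. The 5 genes had a median of −0.53, and 2 of them (40%) were called, against 25% of all named probes.

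Targets of ATF4 and CHOP, transcription factors that raise amino acid synthesis and transport when amino acids are short or the endoplasmic reticulum is stressed, fell for 9 of 19 named members and rose for none, with a median of −0.44. Trib3, a pseudokinase induced through both factors, had values of 6.14, 6.08 and 6.30 with rapamycin, against 7.40, 7.19 and 7.28 in control, a change of −1.11 (SE 0.15, adjusted p = 0.000392 from limma). Asns, which makes asparagine, had 7.00, 7.04 and 7.25 with rapamycin, against 7.95, 7.83 and 8.08 in control, and fell by 0.86 (SE 0.15, adjusted p = 0.00312). Neither gene's groups overlapped. Vldlr, a lipoprotein receptor, fell by 1.15, with 6.85, 6.79 and 6.65 on the rapamycin arrays, against 8.22, 8.18 and 7.34 on the control arrays, where replicate 3 lay far below the others. The factors themselves differed from each other. Atf4 had a change of −0.06 (adjusted p = 0.851), while Atf5 fell by 0.76 and Ddit3, which encodes CHOP, by 0.47, calls that held in 1 and 2 of the 6 fits that each leave out 1 array. Slc7a5, which imports leucine and other large neutral amino acids, fell by 0.62, and Xpot, which exports tRNA from the nucleus, by 0.64. Sqstm1, the autophagy receptor p62, fell by 0.51 by its brighter probe and had −0.18 by the other, which was not called (adjusted p = 0.511). Chac1, Nupr1 and Jdp2, also textbook targets, had positive values of 0.06, 0.28 and 0.10 that were not called. The list had 6 or 7 calls without any one of the 6 arrays, all among the same 9. In the main fit 47.4% of it was called, against 25% of all named probes. Of the 19, 11 stood in the authors' TGR-1 table of changed genes.

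The aminoacyl-tRNA synthetases, which load amino acids onto tRNA and many of which are ATF4 targets, included 9 genes that fell and none that rose. Of 19 named members, among them the scaffold proteins Aimp1 and Eef1e1 of the synthetase complex, the other 10 were not called, and all 19 values were negative, with a median of −0.47. Tars1, the threonine enzyme, read 8.62, 8.74 and 8.89 with rapamycin, against 9.42, 9.49 and 9.60 in control (change −0.75, SE 0.13, adjusted p = 0.00404 from limma). Nars1, the asparagine enzyme, read 10.41, 10.38 and 10.29 with rapamycin, against 11.19, 10.95 and 10.98 in control (change −0.68, SE 0.11, adjusted p = 0.00234). Eprs1, the bifunctional glutamate and proline enzyme, read 7.80, 7.78 and 7.77 with rapamycin, against 8.46, 8.55 and 8.37 in control (change −0.68, SE 0.12, adjusted p = 0.00338). The arrays of each group lay close together in these genes and the groups did not overlap. Gars1 (−0.56), Cars1 (−0.55), Yars1 (−0.50), Wars1 (−0.48), Rars1 (−0.47) and Aars1 (−0.43) also fell. A second, dimmer Tars1 probe had −0.53 and was not called (adjusted p = 0.0934). The mitochondrial enzyme Yars2 had −0.36 and was not called. The count was 3 or 4 without any one of the 6 TGR-1 arrays, while the sign of all 19 was negative in every alternative fit. Calls made up 47.4% of the list, against 25% of all named probes. As 15 of the 19 stood in the authors' TGR-1 table of changed genes, the naming bears on this share.

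The promoters of these genes were examined for the C/EBP-ATF response element, the site that ATF4 binds together with a C/EBP partner, searched on both strands as TGATGNAA over the 300 bases from 250 before to 50 after the RefSeq gene start (GRCr8). A match was present in 3.82% of all 27457 promoters and in 3.09% of the 1263 promoters of named genes. It was present in 7 of 16 promoters of the synthetase list (43.8%) and in 6 of 17 of the ATF4 and CHOP list (35.3%). The ATF4 and CHOP list was written from known targets, and many synthetases are ATF4 targets. High shares thus follow in part from the choice of genes. Genes called lower held it in 9 of 117 promoters (7.69%) and genes called higher in 3.57% of 196. Those 9 include Trib3, Tars1, Nars1, Aars1, Cars1 and Yars1 of these same lists, so the share called lower is not separate from theirs. The stretches that follow, each at most 40 bases and ending before the gene start, show the matches that lie before the start in Trib3 and in 5 synthetase genes, with the match in capitals, and are given because the element was more frequent in these lists than in all promoters. In Trib3, Tars1, Mars1, Aars1 and Iars1 the match reads on the opposite strand.
Trib3: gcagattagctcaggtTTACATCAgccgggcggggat
Tars1: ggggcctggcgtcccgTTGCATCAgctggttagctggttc
Nars1: gctgccctaggtgatcTGATGCAAcgcttc
Mars1: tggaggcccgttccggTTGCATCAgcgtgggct
Iars1: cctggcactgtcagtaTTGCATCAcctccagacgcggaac
Aars1: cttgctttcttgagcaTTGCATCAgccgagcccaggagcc
The stretches lie in GRCr8 at chr3:161275534-161275570 (minus strand) for Trib3, chr2:62114806-62114845 (minus) for Tars1, chr18:60275783-60275812 (minus) for Nars1, chr7:65023754-65023786 (minus) for Mars1, chr17:15193653-15193692 (minus) for Iars1 and chr19:55908354-55908393 (plus) for Aars1. Counted from the gene start, the match began at −21 in Trib3, −27 in Tars1, −14 in Nars1, −17 in Mars1, −24 in Iars1 and −112 in Aars1. The log2 changes of the same genes were −1.11, −0.75, −0.68, −0.52, −0.32 and −0.43, and those of Mars1 and Iars1 were not called. Trib3 was the only called gene among the 6 of the ATF4 and CHOP list with a match. The other 5, Chac1 (0.06), Herpud1 (−0.15), Jdp2 (0.10), Nupr1 (0.28) and Slc7a1 (−0.44), were not called, and in Chac1 the match began at −167:
Chac1: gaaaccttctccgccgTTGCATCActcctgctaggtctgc
That stretch is chr3:126795948-126795987 on the plus strand. Cars1 and Yars1 had their match after the start, and Aars1 had a further one there. None of the 5 serine and one-carbon promoters held these letters, and no match in these lists overlapped a match of the E-box, AP-1 or CRE motifs searched alongside.

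The stretch of 250 bases before the Trib3 start, chr3:161275534-161275783 on the minus strand, is shown whole because Trib3 had the largest fall among the genes of both lists with a match, with the match in capitals close to its end.
Trib3 upstream: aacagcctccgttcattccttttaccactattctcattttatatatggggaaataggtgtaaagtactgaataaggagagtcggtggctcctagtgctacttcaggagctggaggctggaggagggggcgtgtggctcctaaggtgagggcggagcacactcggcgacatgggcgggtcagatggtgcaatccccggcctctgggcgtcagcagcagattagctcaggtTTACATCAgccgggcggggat

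**Figure D2:**
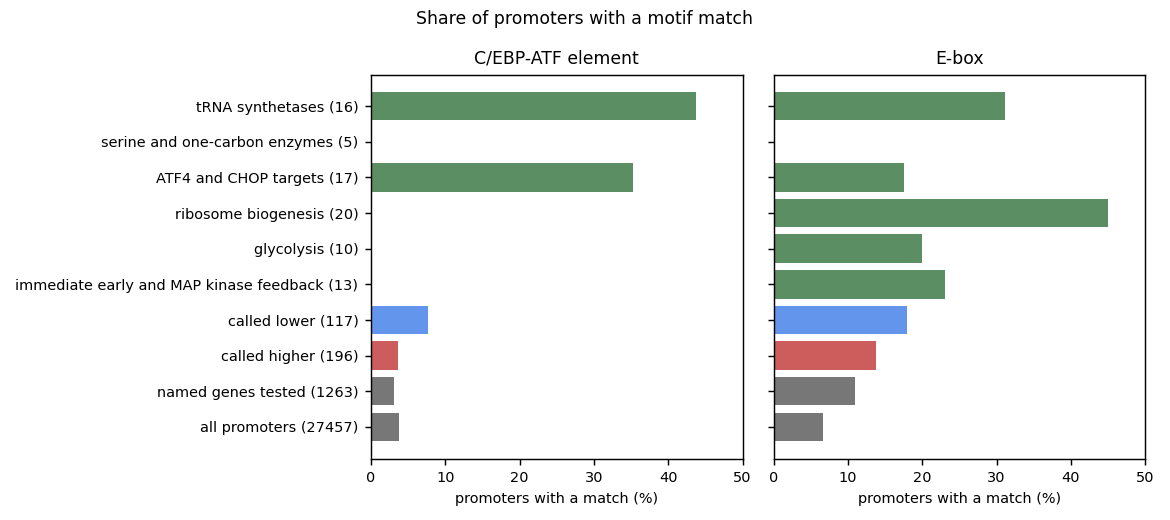
Share of promoters (percent, 250 bases before to 50 after the RefSeq gene start) with a match of the C/EBP-ATF element (left) or the E-box (right), for 6 gene lists, the genes called lower or higher in TGR-1 cells, all named genes tested and all promoters, with the number of promoters in parentheses. The C/EBP-ATF element reached 43.8% in the synthetase list, against 3.82% of all promoters, and the E-box 45% in the ribosome biogenesis list, against 6.65% of all promoters.

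Enzymes of glycolysis, listed together with the pyruvate dehydrogenase kinase Pdk1, fell for 5 of 11 named members (45.5%, against 25% of all named probes called). All 11 values were negative (median −0.31), as they were in every alternative fit, and 7 of the 11 stood in the authors' TGR-1 table of changed genes. Both named phosphofructokinase subunits fell. Pfkl read 6.15, 6.04 and 5.87 with rapamycin, against 6.99, 6.80 and 6.77 in control (change −0.83, SE 0.15, adjusted p = 0.00493 from limma). Pfkp read 7.32, 7.27 and 7.49 with rapamycin, against 8.26, 7.72 and 8.30 in control (change −0.74, SE 0.15, adjusted p = 0.00747). The groups overlapped in neither, although control replicate 2 of Pfkp lay nearer the rapamycin values than the other controls did. Aldoa, the aldolase of this pathway, had 2 probes that both fell, by 0.60 and 0.81. Ldha, which turns pyruvate into lactate and is a textbook c-Myc target, had 11.41, 11.53 and 11.46 with rapamycin, against 12.17, 12.15 and 12.18 in control. Pdk1, the kinase that turns off pyruvate dehydrogenase, fell by 0.61, a call that held in 2 of the 6 fits that each leave out 1 array. Eno1 (−0.31), Tpi1 (−0.29) and Pgk1 (−0.29, adjusted p = 0.164), further enzymes of the pathway, were not called. Between 4 and 5 members were called without any one array.

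Genes that respond to low oxygen did not move together. Bnip3, a mitophagy receptor, read 8.78, 8.87 and 8.76 with rapamycin, against 9.83, 9.67 and 9.52 in control, and fell by 0.87 (SE 0.12, adjusted p = 0.000685 from limma). Its pseudogene copy Bnip3-ps1 fell by 0.90, and the probes of such near-identical copies may not be told apart. Ddit4, which encodes the mTORC1 inhibitor REDD1 and is induced by hypoxia and by ATF4, read 7.01, 7.04 and 6.88 with rapamycin, against 7.62, 7.73 and 7.96 in control (change −0.79, SE 0.11, adjusted p = 0.000685). Adm, the vasodilator peptide adrenomedullin, went the other way, with 9.20, 9.13 and 9.30 on the rapamycin arrays, against 8.14, 8.17 and 8.23 on the control arrays, a rise of 1.03 (SE 0.10, adjusted p = 3.14e-05). Of the 9 named members 2 rose and 3 fell, the third being Pdk1, and Hif1a itself had −0.16 (adjusted p = 0.517). That is 55.6% called, against 25% of all named probes, with 5 of the 9 in the authors' TGR-1 table of changed genes.

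Lipid synthesis genes were negative but rarely called. All 7 named genes of sterol synthesis, which SREBP drives, lay between −0.50 and −0.32, in every alternative fit below 0. Sc5d, a sterol desaturase, was the 1 that fell, by 0.49, with 8.26, 8.49 and 8.53 on the rapamycin arrays, against 8.87, 8.85 and 9.03 on the control arrays. The Sc5d call was lost without rapamycin replicate 1 or control replicate 3, and 4 of the 7 were called without background correction or on the authors' normalized values. All 7 had an unadjusted p under 0.05, and the list's median was −0.41. All 7 stood in the authors' TGR-1 table of changed genes, so their small p-values largely follow from the naming. Scd2, Acsl1 and Acsl3 of fatty acid metabolism had −0.52, −0.52 and −0.34, with 0 called by limma, 3 at an unadjusted p under 0.05 and 0 by the methods' t-test with or without adjustment. The same limit holds for these 3, which also stood in the TGR-1 table. Chka, the choline kinase that starts phosphatidylcholine synthesis, fell by 0.84. It read 6.14, 6.15 and 5.54 with rapamycin, against 7.00, 7.08 and 6.25 in control. Replicate 3 was the lowest in both groups, and the call was kept in 1 of the 6 fits without 1 array.

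Ribosome biogenesis factors, which make and assemble ribosomal RNA in the nucleolus, fell for 5 of 21 named members, with all 21 values negative and a median of −0.34. The share called was 23.8%, against 25% of all named probes in either direction and 9.04% lower. Utp20, of the small-subunit processome, read 6.70, 6.87 and 6.80 with rapamycin, against 7.40, 7.32 and 7.60 in control (change −0.65, SE 0.12, adjusted p = 0.00579 from limma). Nolc1, Mybbp1a, Bop1 and Rrp9, nucleolar factors of transcription, processing and modification, fell by 0.57, 0.52, 0.48 and 0.42. The count was 1 without rapamycin replicate 1 or control replicate 2, 2 without rapamycin replicate 2 or control replicate 1, 3 without rapamycin replicate 3 and 4 without control replicate 3, and Utp20 was the gene whose call held in all 6 of these fits. Ribosomal protein and elongation factor genes had a median of 0.05 with values of −0.20 to 0.39. Of these, 11 carried a name through the HO15.19 table alone, against 5 of the 21 ribosome biogenesis genes, so the naming largely set this count and the lists cannot be compared. Of the 14, 0 were called by limma, 4 had an unadjusted p under 0.05, and the methods' t-test called 2 without adjustment and 0 with it. Initiation factors had a median of −0.26 with 1 of 15 called, Eif3c (−0.51), a call lost without rapamycin replicate 1 or 2 or control replicate 2 or 3. Proteasome subunits had a median of −0.31 with 1 of 17 called, the ATPase subunit Psmc5 (−0.74), and 14 of the 17 were negative. The Psmc5 call was lost without rapamycin replicate 3 or control replicate 1 or 2. The 3 with positive values were Psmb10, Psme1 and Psme2 (0.32, 0.34 and 0.34), the interferon-inducible subunits and activators, which were not called.

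The canonical E-box CACGTG, the site of c-Myc with Max, was searched in the same promoters. It is its own reverse complement. A match was present in 6.65% of all promoters, 11% of those of named genes, 17.9% of those of genes called lower and 13.8% of those of genes called higher. In the ribosome biogenesis list 9 of 20 promoters held it (45%), in the synthetase list 5 of 16 (31.2%), in the immediate early list 3 of 13 (23.1%), in glycolysis 2 of 10 (20%), in the ATF4 and CHOP list 3 of 17 (17.6%) and in the serine list 0 of 5. Stretches around matches before the start of 4 ribosome biogenesis genes are shown with the E-box in capitals, as these are the promoters in which it was most frequent.
Utp20: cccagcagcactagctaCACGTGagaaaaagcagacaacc
Mybbp1a: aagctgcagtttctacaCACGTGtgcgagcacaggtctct
Npm3: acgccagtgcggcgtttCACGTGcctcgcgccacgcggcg
Gnl3: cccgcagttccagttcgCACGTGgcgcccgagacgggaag
They lie in GRCr8 at chr7:25102954-25102993 (minus strand) for Utp20, chr10:57555285-57555324 (plus) for Mybbp1a, chr1:254546685-254546724 (minus) for Npm3 and chr16:6219785-6219824 (minus) for Gnl3. The log2 changes were −0.65 for Utp20, −0.52 for Mybbp1a, −0.43 for Npm3 and −0.34 for Gnl3, and those of Npm3 and Gnl3 were not called. The CRE was present in 3 of 13 immediate early promoters (23.1%), against 1.91% of all promoters and 3.17% of those of named genes. The AP-1 site was present in 0 of these 13 and in 3 of 17 promoters of the ATF4 and CHOP list (17.6%). It was present in 7.65% of promoters of genes called higher, 5.98% of those called lower and 4.53% of all. The shares searched cover 4 motifs and 6 lists and are descriptions only, since a match of letters does not show that a factor binds there.

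Chaperones fell for 4 of 16 named members and rose for 1, a share called of 31.2%, against 25% of all named probes. Hsp90aa1, the inducible cytosolic Hsp90, fell by 0.66, Hspa5 and Hsp90b1, the main chaperones of the endoplasmic reticulum, by 0.50 and 0.38, and the mitochondrial Hspa9 by 0.49. Cryab, a small heat shock protein, rose by 0.84, with 7.06, 7.48 and 7.21 on the rapamycin arrays, against 6.28, 6.46 and 6.51 on the control arrays. The call of Cryab held in all 6 fits without 1 array, that of Hspa5 in 3, that of Hsp90aa1 in 2 and those of Hspa9 and Hsp90b1 in 0. Between 1 and 3 of the list were called in those fits, whichever array was left out.

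**Figure D3:**
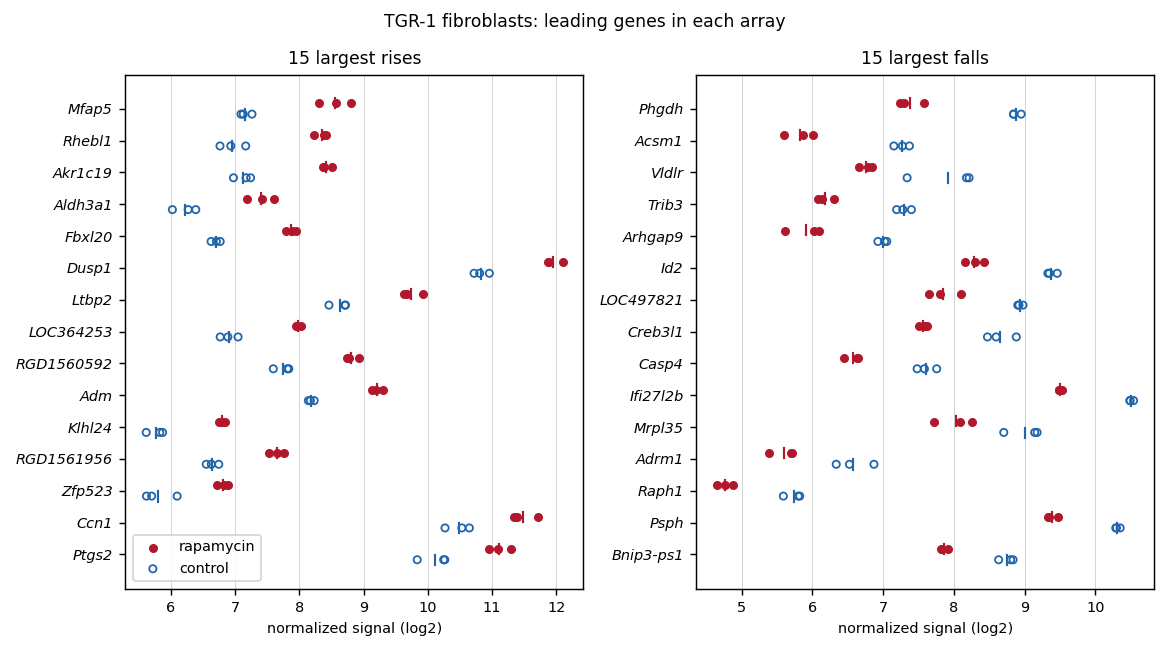
Log2 normalized signal in each of the 6 TGR-1 arrays for the 15 largest rises (left) and the 15 largest falls (right) among called, named probes, with rapamycin arrays as filled red points above the control arrays as open blue points and a bar at each group mean. By the rule of selection, the 3 rapamycin and the 3 control values overlap in no gene. The widest spread within a group is that of Vldlr in control.

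Of the 15 largest rises and 15 largest falls, 29 stayed called without any one TGR-1 array. The exception was Adrm1, a ubiquitin receptor of the proteasome, whose call was lost without rapamycin replicate 3 or control replicate 1. These genes were chosen for the largest changes on the same arrays. Of all 428 called named probes 161 stayed called in this way, and of 104 called list members 54.

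Secreted matrix genes held some of the largest rises. Mfap5, a glycoprotein of elastic microfibrils, read 8.30, 8.57 and 8.80 with rapamycin, against 7.09, 7.13 and 7.26 in control (change 1.40, SE 0.12, adjusted p = 1.07e-05 from limma). Ltbp2, a microfibril protein of the latent TGF-beta binding family, read 9.63, 9.68 and 9.92 with rapamycin, against 8.46, 8.71 and 8.72 in control (change 1.11, SE 0.15, adjusted p = 0.000512). Of the small leucine-rich proteoglycans, which coat collagen fibrils, Omd (osteomodulin) rose by 0.96 and Aspn (asporin) by 0.88, and the related Ogn had 0.15 and was not called. Col14a1, a collagen that binds fibril surfaces, had 7.88, 7.98 and 8.12 with rapamycin, against 7.12, 7.29 and 7.08 in control, and rose by 0.83. Col8a1 rose by 0.76, Ecm1 by 0.72, and the fibroblast marker Fbln1 by 0.38, although the Fbln1 call was lost in each of the 6 fits without 1 array. Not all collagens were higher. Col1a1, the main fibrillar collagen of fibroblasts, read 11.63, 11.76 and 11.75 with rapamycin, against 12.19, 12.25 and 12.15 in control, and fell by 0.49 (SE 0.10, adjusted p = 0.0137), Col12a1 fell by 0.48, and Col3a1 had −0.02. Of 19 named structural matrix genes 7 rose and 2 fell, with a median of 0.28, and 6 to 9 were called without any one array. Those called were 47.4%, against 25% of all named probes, and 12 of the 19 stood in the authors' TGR-1 table of changed genes. Adamts2, a procollagen peptidase, rose by 0.83, with 9.39, 9.40 and 9.46 on the rapamycin arrays, against 8.48, 8.63 and 8.64 on the control arrays.

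Several signalling ligands that act on matrix were higher as well. Tgfb2 rose by 0.62 and Tgfb3 by 0.45, while Tgfb1 had 0.36 and was not called (adjusted p = 0.144). Ccn5, a matricellular protein of the CCN family, read 8.63, 8.50 and 8.78 with rapamycin, against 7.59, 7.55 and 7.80 in control, and rose by 0.99 (SE 0.14, adjusted p = 0.000611 from limma). Id2, an inhibitor of differentiation factors that BMP signals induce, went the opposite way, with 8.30, 8.15 and 8.42 with rapamycin, against 9.46, 9.35 and 9.33 in control, a fall of 1.09. In this list of TGF-beta, BMP and Wnt genes 4 of 9 rose and 1 fell, and the call of Tgfb3 was lost in each of the 6 fits without 1 array. Calls were 55.6% of the list, against 25% of all named probes, and 8 of the 9 stood in the authors' TGR-1 table of changed genes. Tgfa, a ligand of the EGF receptor, rose by 0.69, and Igf1r, the receptor for insulin-like growth factor 1, rose by 0.63 with 9.44, 9.24 and 9.36 on the rapamycin arrays, against 8.65, 8.77 and 8.74 on the control arrays.

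Immediate early genes and the feedback inhibitors of MAP kinases, which fibroblasts induce within minutes of serum, were higher at 24 hr for 10 of 17 named members, lower for none, with a median of 0.47. This is 58.8% called, against 25% of all named probes, and 13 of the 17 stood in the authors' TGR-1 table of changed genes. Fos, a subunit of the AP-1 factor, had 6.01, 6.59 and 5.82 with rapamycin, against 5.31, 5.26 and 5.25 in control, a rise of 0.87 (SE 0.16, adjusted p = 0.00461 from limma). Zfp36, which destabilizes cytokine mRNA, had 8.67, 8.75 and 8.67 with rapamycin, against 8.10, 7.90 and 7.98 in control, a rise of 0.71 (SE 0.11, adjusted p = 0.00168). Rapamycin replicate 2 was the highest for both, and the groups overlapped in neither. Maff, a small Maf protein, rose by 0.84, Dusp6, a phosphatase specific for ERK, by 0.54, Egr1 by 0.54, Junb by 0.47 and Klf2 by 0.45. Klf4, Jund and Klf10 had −0.38, −0.02 and 0.03 and were not called. The number of calls was 4 without rapamycin replicate 2 and 4 without control replicate 1, 5 without rapamycin replicate 3 or control replicate 2, 7 without control replicate 3 and 8 without rapamycin replicate 1.

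Among genes of the actin cytoskeleton and targets of SRF and YAP, 5 of 11 rose, with Ccn1 at 1.00, Tpm1 at 0.64, Ccn2 at 0.55, Fhl1 at 0.49 and Cald1 at 0.46. Tpm3 had −0.32 by its brighter probe, not called (adjusted p = 0.183), and fell by 0.61 by the other. The count was 2 without rapamycin replicate 2 or control replicate 2, 4 without rapamycin replicate 1 and 3 without any of the others. With all arrays 45.5% were called, against 25% of all named probes, and 9 of the 11 stood in the authors' TGR-1 table of changed genes. Of 13 named NF-kB targets 6 rose (46.2% called, against 25% of all named probes), and all 13 had an unadjusted p under 0.05. Since 11 of the 13 stood in the authors' TGR-1 table of changed genes, these p-values largely follow from the naming. Icam1, an adhesion molecule for leukocytes, read 9.83, 10.04 and 9.79 with rapamycin, against 9.17, 9.07 and 9.18 in control (change 0.75, SE 0.11, adjusted p = 0.000674 from limma). The chemokines Ccl2, Ccl7 and Cxcl10 rose by 0.58, 0.58 and 0.57, whereas Nfkbib, an inhibitor of NF-kB, and Mmp3 had −0.40 and −0.34 and were not called. The count was 3 without rapamycin replicate 2 and 4 or 5 without any other array. Interferon-stimulated genes were mixed, with 4 of 11 higher and 1 lower (45.5% called, against 25% of all named probes). Of the 11, 8 stood in the authors' TGR-1 table. Both Ifi27 probes rose, by 0.92 and 0.96, and Casp4, the inflammatory caspase, read 6.45, 6.63 and 6.64 with rapamycin, against 7.48, 7.76 and 7.59 in control, a fall of 1.04. The interferon count was 2 without rapamycin replicate 1 or 2, 3 without control replicate 1 and 4 or 5 otherwise.

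FOXO factors are held out of the nucleus by Akt, and 5 of 10 of their named targets rose, with a median of 0.44 and no fall. Depp1, an autophagy regulator that FOXO3 induces, had 6.69, 6.43 and 6.75 with rapamycin, against 5.73, 5.42 and 5.92 in control, a rise of 0.93 (SE 0.16, adjusted p = 0.00266 from limma). Gadd45g and Gadd45b, growth arrest genes, rose by 0.68 and 0.61, and Txnip, an arrestin that limits glucose uptake, by 0.52. Sesn3 had −0.23 and was not called. The count was 3 without rapamycin replicate 2 or 3 or control replicate 1 or 2, and 4 or 5 otherwise. From all arrays it was 50% of the list, against 25% of all named probes, and 7 of the 10 stood in the authors' TGR-1 table of changed genes. Within the mTOR pathway itself Rhebl1, a relative of the mTORC1 activator Rheb, had the second largest rise, with 8.23, 8.38 and 8.42 on the rapamycin arrays, against 6.93, 6.76 and 7.16 on the control arrays. Pdcd4, a translation repressor that S6 kinase marks for degradation, rose by 0.64. Fkbp1a, which encodes the rapamycin-binding protein FKBP12, had −0.24 (adjusted p = 0.207), and Tsc2 had 0.03. The 4 called members of this list of 10 (40%, against 25% of all named probes), with Ddit4 and Igf1r, held in each fit without 1 array. The methods' t-test called 0 of them with adjustment and 4 without, and centring on the median of all probes left 2. Of the 10, 6 stood in the authors' TGR-1 table.

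Autophagy and lysosome genes were divided. Map1lc3a, an LC3 protein of the autophagosome membrane, read 9.28, 9.17 and 9.19 with rapamycin, against 8.27, 8.48 and 8.44 in control (change 0.82, SE 0.14, adjusted p = 0.00339 from limma). Scarb2, the lysosomal membrane protein LIMP-2, read 8.28, 8.16 and 8.15 with rapamycin, against 7.63, 7.61 and 7.67 in control (change 0.56, SE 0.10, adjusted p = 0.00404). The receptors Bnip3 and Sqstm1 of the same list fell, and the other 9 of 13, among them Ulk1 (0.15), Ctsd (0.33) and Wipi1 (0.30), were not called. The share called in this list was 30.8%, against 25% of all named probes. Enzymes that remove aldehydes and ketones also split. Akr1c19 and Aldh3a1 rose by 1.29 and 1.18, and Akr1b8 and Mgst1, further redox enzymes, fell by 0.62 and 0.43, while Nqo1, the standard target of NRF2, had −0.38 (adjusted p = 0.0794). The calls of Akr1b8 and Mgst1 are close to the threshold, with adjusted p = 0.0485 and 0.0465.

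**Figure D4:**
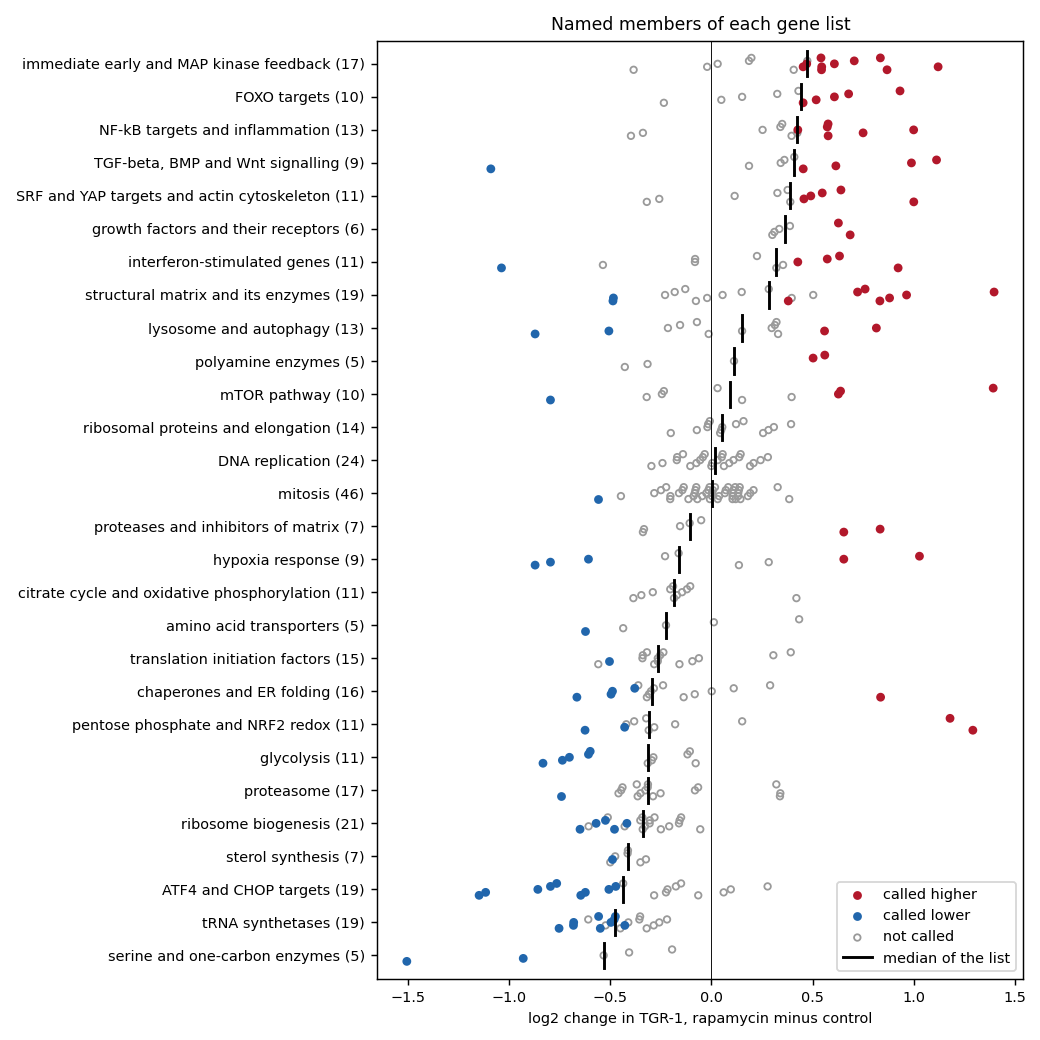
Log2 change in TGR-1 cells (rapamycin minus control) of the named members of each gene list with at least 5 of them, with called members filled (red higher, blue lower), others open, a black bar at the list's median and the number of members in parentheses. The lists run from the immediate early genes (median 0.47) at the top to the serine and one-carbon enzymes (median −0.53) at the bottom, and the DNA replication and mitosis lists sit near 0.

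The 3 named members of the Myc network were higher, and all 3 stood in the authors' TGR-1 table of changed genes. Members that the authors found changed in neither line had no name here, so this count follows from the naming. The Myc probe read 9.53, 9.53 and 9.76 with rapamycin, against 9.07, 8.97 and 9.04 in control, a rise of 0.58 (SE 0.11, adjusted p = 0.00705 from limma) that held without any one array. In HO15.19 cells the same probe averaged 8.08 with rapamycin and 7.83 in control and was detected on all 6 arrays, and the sources used here do not state whether it lies in the disrupted part of the gene. Of the 3 members, the methods' t-test called 0 with adjustment and 2 without, and centring on the median of all probes left 0 called. Mxd3 and Mxd4, which compete with c-Myc for Max, rose by 0.61 and 0.62, each in 3 of the 6 fits without 1 array. Ccnd1, cyclin D1 of the G1 phase, had 11.19, 11.18 and 11.44 with rapamycin, against 10.78, 10.74 and 10.95 in control, and rose by 0.45 (adjusted p = 0.0316). Its call held in 1 of those 6 fits, and that of E2f1 (0.39, adjusted p = 0.0464) in none. Ccng1, an atypical cyclin induced by p53, fell by 0.53. Odc1, which controls polyamine synthesis and is a c-Myc target, rose by 0.56, and Oaz2, an antizyme that targets the Odc1 protein for degradation, by 0.50. Neither was called without control replicate 1, and the Odc1 call was also lost without rapamycin replicate 2 or 3 or control replicate 2.

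Genes of cell division were named here almost only through HO15.19 cells, since 23 of 24 DNA replication genes and 43 of 46 mitosis genes stood in the HO15.19 table and not in the TGR-1 table. A low count in TGR-1 cells and a high one in HO15.19 cells therefore follow from the naming and are given as a description. Of 24 named DNA replication genes 0 were called by limma, 3 had an unadjusted p under 0.05, the methods' t-test called 1 without adjustment and 0 with it, and the median was 0.02. Of 46 named mitosis genes 1 was called, the phosphatase Cdc25b (−0.56), and the median was 0.01. In HO15.19 cells 16 replication and 32 mitosis genes were called lower, with medians of −0.55 and −0.51. The change differed between the lines for 2 replication genes (Mcm10 and Pold1) and 3 mitosis genes (Incenp, Kif20a and Ncapd2).

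The changes in TGR-1 cells were set beside those in HO15.19 cells. Of the 467 probes called in TGR-1 cells, 420 had a change of the same sign in HO15.19 cells, against 6081 of all 9824 probes tested. In HO15.19 cells 550 of the 9824 were called (5.6%). The probes called in both lines numbered 150, which is 32.1% of the TGR-1 calls and 27.3% of the HO15.19 calls, and 148 of them moved the same way. Changes of the probes called in TGR-1 cells tended to be smaller in HO15.19 cells, with a median of 0.31 for those called higher and −0.28 for those called lower, but these probes were selected on the TGR-1 values, so this is a description without a test. The difference between the lines, tested in the same limma fit, was called for 11 probes (0.112%), 4 of which were among the 467, and 984 probes (10%) had an unadjusted p under 0.05 for it. The 4 were Acsm1, LOC684490, H2ax and Ccl2, of which LOC684490 and H2ax are named after their values were seen. Acsm1, an acyl-CoA synthetase, read 6.01, 5.87 and 5.60 with rapamycin, against 7.27, 7.15 and 7.37 in control, and fell by 1.44. It was detected on 1 of the 6 HO15.19 arrays, so its difference of −1.08 has no measured level behind it in that line. H2ax, the histone variant marked at DNA breaks, read 12.14, 11.91 and 12.06 with rapamycin, against 11.39, 11.29 and 11.39 in control, and rose by 0.68, and its difference between TGR-1 and HO15.19 cells was 1.05 (SE 0.14, adjusted p = 0.0161). Without TGR-1 rapamycin replicate 3, TGR-1 control replicate 1 or HO15.19 control replicate 2 the difference was called for 0 probes by limma, with 942, 829 and 869 at an unadjusted p under 0.05. Without the other arrays 1 to 9 were called.

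Other called genes had unlike values in the 2 lines without passing the test of the difference. Id2 had −1.09 in TGR-1 and −0.10 in HO15.19 cells (adjusted p of the difference 0.0574 from limma), and Ifi27 had 0.92 in TGR-1 and 0.05 in HO15.19 cells (adjusted p = 0.0757). Mfap5 had 1.40 in TGR-1 and 0.63 in HO15.19 cells (adjusted p = 0.105), and Sc5d −0.49 in TGR-1 and 0.17 in HO15.19 cells (adjusted p = 0.124). Slc7a5 had −0.62 in TGR-1 cells, nearer 0 than its −1.63 in HO15.19 cells (adjusted p = 0.0574). For the tRNA synthetases the median was −0.47 in TGR-1 and −0.75 in HO15.19 cells with no difference called by limma and 7 of 19 at an unadjusted p under 0.05. The 15 largest rises and 15 largest falls had the same sign in both lines. After adjustment 1 of these 30, Acsm1, differed between the lines. Of the 30, 15 had an unadjusted p under 0.05 from limma for the difference, against 10% of all probes. They were selected on their TGR-1 values, which also enter the difference, so these shares cannot be compared.

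**Figure D5:**
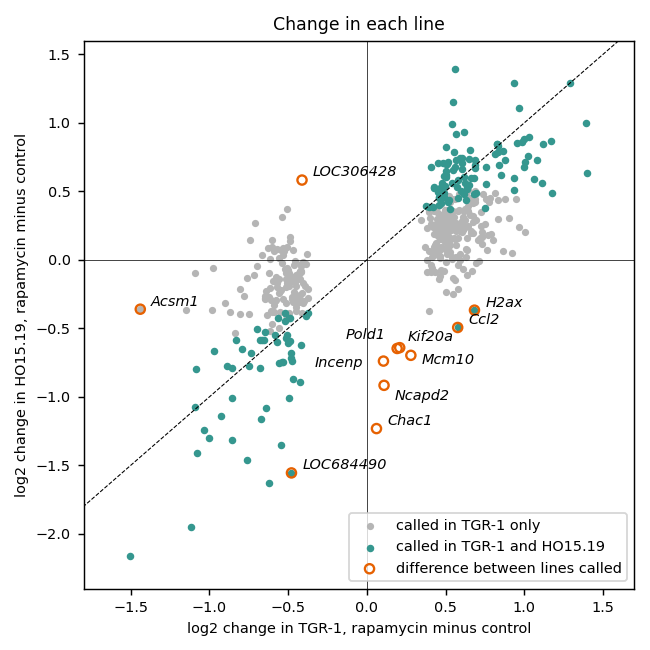
Log2 change (rapamycin minus control) in TGR-1 cells (horizontal axis) and HO15.19 cells (vertical axis) of the 467 probes called in TGR-1 cells, grey where HO15.19 cells gave no call and green where both did, together with the 11 probes whose change differed between the lines (ringed, 4 of them among the 467) and the dashed line at equal change. Of the 467, 420 share their sign, and 9 of the 11 ringed probes lie below the dashed line, with a higher change in TGR-1 cells.

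A further 57 probes were detected on all 3 arrays of one TGR-1 group and on none of the other, 35 of them with rapamycin and 22 in control, and 9 were called. Only 3 had a name. Raph1, an adaptor that links Ras-related GTPases to actin, was not detected with rapamycin, where it read 4.66, 4.76 and 4.88, and read 5.82, 5.80 and 5.59 in control. Since the rapamycin value is at background it was at least 1.71-fold lower there, counting from the lowest detected signal of each array (adjusted p = 0.00493 from limma). Serpinb10, a serine protease inhibitor, was detected with rapamycin and not in control and was at least 1.09-fold higher (adjusted p = 0.0137), and Cox6a2, a subunit of cytochrome oxidase, was at least 1.27-fold lower with rapamycin without being called.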

How the data were processed

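RNA from 3 cultures per group was hybridized to Illumina RatRef-12 arrays. The deposited signals are raw bead intensities with a detection p-value per probe. A second deposited table holds intensities that the authors quantile normalized in BeadStudio, and they tested them in Partek 6.3. The authors' tables of changed genes hold their fold changes and p-values, which were not used. Those tables gave names to 1734 probes. The raw intensities were background corrected and quantile normalized over all 12 arrays with neqc of limma 3.58.1 (R 4.3.3, offset 16), which gives log2 values. Probes whose deposited detection p-value was less than 0.05 in 3 or more TGR-1 arrays were fitted with group means by lmFit and eBayes, and p-values were adjusted by Benjamini and Hochberg over all 9824. The fit held all 12 arrays, so the p-values rest on the spread between cultures within all 4 groups, those of HO15.19 included. The number of arrays limits the precision. With the TGR-1 arrays only, 536 probes were called, 419 of them among the 467.

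Named genes were the 15 largest rises and the 15 largest falls among called, named probes, the members of 33 gene lists, those of both whose change differed between the lines, Myc, Ccnd1 and Pgk1, and named probes detected in 1 TGR-1 group only. The largest rises and falls also had to have groups that did not overlap. H2ax, LOC684490, LOC306428 and Smim14 with its copies fall partly outside this rule and were chosen after their values were seen. Results for some list members are not reported here. Of several probes for a gene the brightest stands for it. The members and lists were chosen with earlier results of these data known. On simulated data with 9824 probes, the comparison in TGR-1 recovered 24% of probes changed 1.3-fold, 56% at 1.5-fold and 100% at 2-fold. Promoters came from RefSeq (GRCr8), with 1263 of 1518 named genes matched. The alternatives were other detection filters, background, scaling, variance and test settings, the replicate block and leaving out each array.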

Additional observations from a re-analysis of the deposited data

Results flagged for a closer look

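The change with rapamycin differed between TGR-1 and HO15.19 cells, by limma's test of the difference (TGR-1 change minus HO15.19 change, adjusted over 9824 probes), for 11 probes. It was higher in TGR-1 cells for Chac1 (1.29), LOC684490 (1.08), Ccl2 (1.07), H2ax (1.05), Ncapd2 (1.03), Mcm10 (0.98), Pold1 (0.85), Incenp (0.84) and Kif20a (0.84). It was lower in TGR-1 cells for Acsm1 (−1.08) and LOC306428 (−0.99). LOC684490, listed as similar to the folate enzyme Mthfd2, fell in both lines, by 0.48 in TGR-1 and 1.56 in HO15.19 cells. LOC306428, listed as similar to a heat shock protein, had −0.41 in TGR-1 and 0.58 in HO15.19 cells. Ccl2 had 0.58 in TGR-1 and −0.49 in HO15.19 cells.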

How the results depend on the processing

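The 467 probes kept their sign in every alternative. In fits of the same normalized values this was fixed in advance, since their groups did not overlap. The number of calls depended on scaling and test. It was 41 with arrays centred on the median of all probes, 836 with array weights, 79 by the methods' t-test, 865 without adjustment, 170 at an adjusted p under 0.01 and 211 to 339 without 1 TGR-1 array. The 194 calls of at least 1.5-fold became 93 without background correction, 41 centred on all probes, 96 on the authors' normalized values, 38 by the t-test and 160 to 212 without 1 array. The 11 differences between the lines became 24 with detection on all 6 TGR-1 arrays, 26 without a filter, 55 without background correction, 54 on the authors' values, 46 with a robust variance trend, 31 with array weights, 6 with the replicate block, and 0 to 9 without 1 array. They became 0 by limma with arrays centred on all probes or on the tested probes, with 243 and 772 at an unadjusted p under 0.05. The cause was not tested. Same-numbered TGR-1 arrays correlated at 0.06, −0.05 and 0.27 in their deviations, and differently numbered ones at −0.215 to 0.188. So few arrays cannot settle whether the numbers pair the samples. The replicate block gave 422 calls, 384 of them among the 467. Over 122 named changes no alternative reversed a sign, but many became weaker. These were 87 with arrays centred on the median of all probes, 97 by the methods' t-test and 27 to 43 without 1 TGR-1 array. With 3 arrays a group, small changes were often missed, as the simulated recovery shows.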

Other observations

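Smim14, a small membrane protein gene, and 4 loci listed as similar to it had 5 probes, which were all called higher in TGR-1 cells with changes of 0.94 to 1.08. Such copies may share transcripts on the array, so they are not 5 separate genes here. Of 23 genes with several probes, 5 had every probe called, 9 had some called and 3 had probes of opposite sign.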
